A study of Mus musculus with 4 samples.

Results

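The insulin-like growth factor (IGF) family was followed in the ventral midbrain of mice that lack REV-ERBα and of their wild-type counterparts. The family was taken as 10 genes, the ligands Igf1 and Igf2, the receptors Igf1r and Igf2r, and the binding proteins Igfbp2, Igfbp3, Igfbp4, Igfbp5, Igfbp6 and Igfbp7. A probe set, the group of probes that reports 1 gene, was counted for a gene when the array's annotation gave it that gene's symbol and no other, and each of the 10 genes had exactly 1, so 10 of the 35556 probe sets and 10 of the 19938 named genes were followed. All 10 passed the filter on dim genes and were among the 13587 genes tested.

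Gene expression was measured on 4 arrays of total RNA, 2 from wild-type mice (WT) and 2 from REV-ERBα knockout mice (RKO, genotype Rev-erba knock-out). All mice were males of the C57BL/6J background, aged 10 to 15 weeks, that were entrained for over 10 days to 12 h of light a day and then spent 2 days in constant darkness before tissue was taken on the day after. The hour of collection, the knockout allele and the number of mice behind each array are not given in the sources used here. Replicates are biological by their labels. With 2 arrays a group the p-values measure the spread between these arrays, for the most part as pooled over all tested genes. REV-ERBα, the product of Nr1d1, is a nuclear receptor that represses transcription as part of the circadian clock.

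IGF1 and IGF2 are secreted peptides related to insulin that drive growth and survival through the tyrosine kinase receptor encoded by Igf1r. Igf2r encodes the mannose 6-phosphate receptor, which takes up IGF2 and delivers it to lysosomes. The IGF binding proteins hold the ligands in the fluid around cells and are cut by proteases that set the ligand free. In the adult brain Igf2 and Igfbp2 are known from the leptomeninges and the choroid plexus, and Igfbp7 from blood vessels.

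In RKO, 1 of the 10 genes changed: Igfbp4, which encodes a binding protein that restrains IGF action, fell 1.21-fold. Its call rests on the processing, as it was lost with no filter, median centring, quantile normalization or any array left out. This 1 gene stands against 1.60% of all tested genes that changed in either direction, 0.964% that fell and 0.640% that rose. Igf2 and Igfbp5 were lower by a like amount in both RKO arrays but did not pass the test, Igfbp2 was the member with the highest difference, and the receptors lay within 0.04 of WT on the log2 scale. By role, 0 of 2 ligands, 0 of 2 receptors and 1 of 6 binding proteins passed. The 10 differences ran from -0.28 to 0.14 with a median of -0.07, beside a median of -0.01 over all tested genes.

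Of the ligands, Igf2 was the one with the larger difference. The intensity, the array's linear measure of RNA, stood at 847 and 882 on the WT arrays against 732 and 740.3 on the RKO arrays. Both RKO arrays lay below both WT arrays, and the gap between the groups was wider than that between the WT arrays (0.06 on the log2 scale) or the RKO arrays (0.02). The log2 difference was -0.23 (limma SE 0.0560, 95% interval -0.36 to -0.11, n = 2 per group), a level lower by 1.17-fold, and it did not pass (adjusted p = 0.0765 in limma). Of the tested genes, 1.75% had a difference as low as this or lower.

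Igf1, the ligand made in the brain by neurons and microglia among others, was nearly level. The WT arrays read 501 and 498 and the RKO arrays 516 and 513. The RKO arrays lay above the WT arrays, by a log2 difference of 0.04 (SE 0.0546, interval -0.08 to 0.16, adjusted p = 0.845 in limma). Arrays that do not overlap in this way were found in 41.8% of all tested genes, so the lack of overlap says little about so small a difference.

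Neither receptor differed beyond the spread between arrays. Igf1r read 1209.7 and 1236 in WT and 1199 and 1229 in RKO, and Igf2r read 596 and 603 in WT and 590.0 and 644 in RKO. The groups overlapped for both genes. The log2 differences were -0.01 for Igf1r (interval -0.13 to 0.11) and 0.04 for Igf2r (interval -0.09 to 0.17), so the Igf1r level in RKO lay between 0.912 and 1.08 times that in WT within the interval. The RKO arrays differed from each other by 0.13 in Igf2r, the widest gap within RKO among the 10 genes, and without RKO replicate 2 the Igf2r difference was -0.02.

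Igfbp4 had the largest difference of the binding proteins. It read 408 and 424 on the WT arrays, and 335 and 350.1 on the RKO arrays. The groups did not overlap, and the gaps within them were 0.06 in both WT and RKO on the log2 scale. The log2 difference was -0.28 (SE 0.0574, 95% interval -0.41 to -0.15, adjusted p = 0.0378 in limma), and 145 of the 13587 tested genes were as low or lower. Whichever array was left out, the difference ran from -0.31 to -0.25. Its sign could not turn, as the groups did not overlap, and the call was lost each time. It was also lost with no filter (adjusted p = 0.246 in limma), with median centring (adjusted p = 0.0950) and with quantile normalization (adjusted p = 0.0673).

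Igfbp5, a binding protein that also attaches to the extracellular matrix, read 1177 and 1196 in WT and 961 and 1045 in RKO. Both RKO arrays lay below both WT arrays, with a gap between the RKO arrays of 0.12. The log2 difference was -0.24 (SE 0.0606, interval -0.38 to -0.11), which did not pass (adjusted p = 0.0853 in limma). With a stricter filter on dim genes, or with an intensity trend in the test, Igf2 (adjusted p = 0.0181 and 0.00941) and Igfbp5 (adjusted p = 0.0191 and 0.00272) passed beside Igfbp4 in limma. Whether these 2 genes are called changed therefore rests on the processing.

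Igfbp2, a binding protein abundant in cerebrospinal fluid, went the other way. The WT arrays read 325 and 359 and the RKO arrays 371 and 380.5. The RKO arrays lay above the WT arrays, although WT replicate 2 came close to RKO replicate 1, and the WT arrays differed by 0.15. The log2 difference was 0.14 (SE 0.0633, interval -0.0019 to 0.28) and did not pass (adjusted p = 0.397 in limma). It was 0.07 without WT replicate 1 and 0.21 without WT replicate 2.

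The other binding proteins gave small differences. Igfbp7, a vascular protein that binds IGFs weakly, read 2171 and 2161 in WT and 1958 and 2029 in RKO, with both RKO arrays lower (log2 difference -0.12, interval -0.24 to 0.0030, adjusted p = 0.404 in limma). Igfbp6, which prefers IGF2 to IGF1, read 183 and 193 in WT and 178 and 169 in RKO, again with both RKO arrays lower (-0.12, interval -0.25 to 0.01, adjusted p = 0.451 in limma). These intensities lie close to the filter at 167, and neither Igfbp6 nor Igfbp3 was bright enough for the stricter filter. Igfbp3, the main IGF carrier of the blood, read 241 and 272 in WT, against 242 and 263 in RKO, and the groups overlapped (-0.02, interval -0.18 to 0.14). The 2 WT arrays differed by 0.17 in Igfbp3, the widest gap within WT in the family.

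Over the whole family, 5 of 10 genes had both RKO arrays below both WT arrays (24.6% of all tested genes did), 2 had both above (17.2% of all tested genes) and 3 overlapped. The 5 lower genes were Igf2, Igfbp4, Igfbp5, Igfbp6 and Igfbp7, and the 2 higher ones Igf1 and Igfbp2. At an unadjusted limma p under 0.05 there were 3 genes, Igf2, Igfbp4 and Igfbp5, all lower, where 12.8% of all tested genes reached that p and 6.90% reached it with a lower level. The SE of the 10 genes ran from 0.0546 to 0.0708, and the smallest difference called among all tested genes was 0.26 in size.

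**Figure D1:**
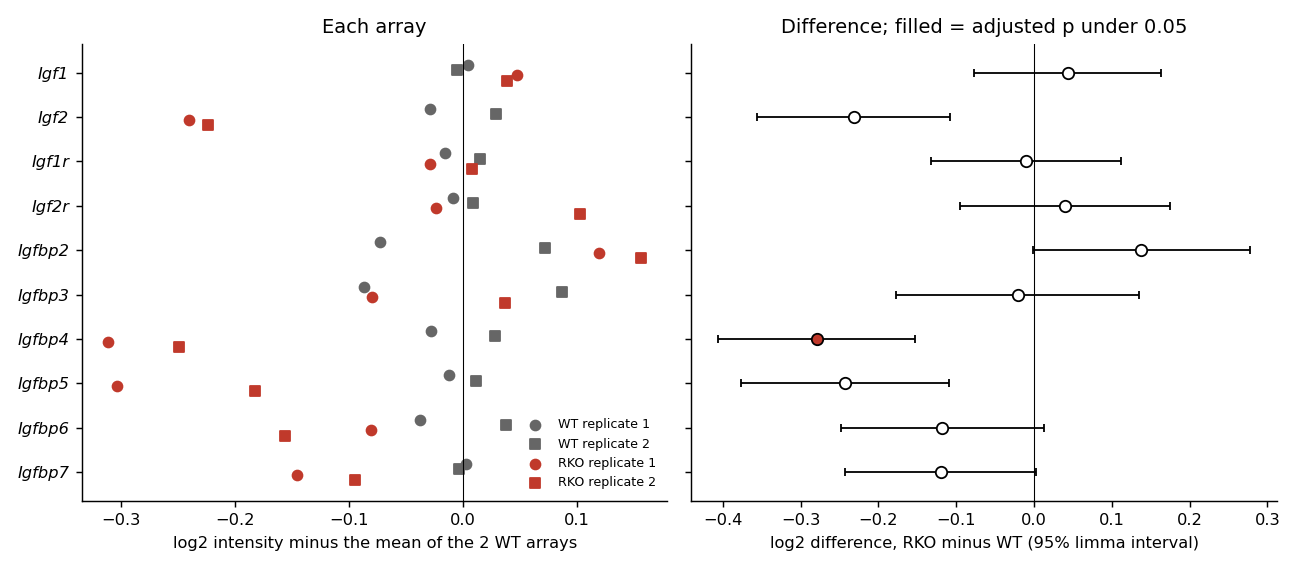
Left, log2 intensity of each IGF gene on each of the 4 arrays minus the mean of the 2 WT arrays (grey, WT; red, RKO; circles, replicate 1; squares, replicate 2). Right, the log2 difference RKO minus WT with its 95% limma interval; the filled point, Igfbp4 at -0.28, is the 1 gene with an adjusted p under 0.05.

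**Figure D2:**
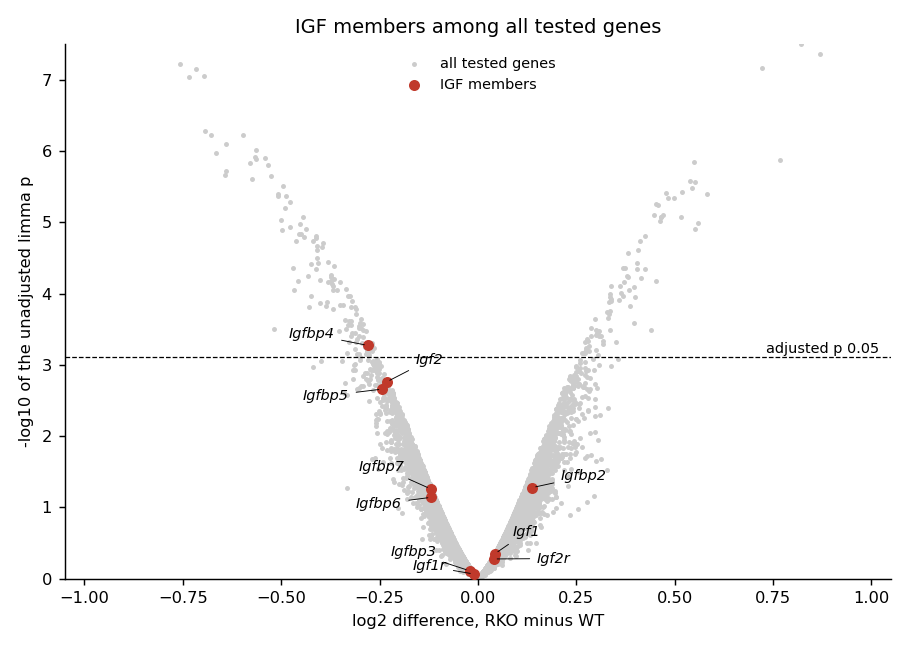
Log2 difference RKO minus WT (horizontal) against -log10 of the unadjusted limma p (vertical) for the tested genes in grey and the 10 IGF genes in red. The dashed line is the level of adjusted p 0.05; Igfbp4 lies above it, Igf2 and Igfbp5 just below it, and 9 genes of the array lie outside the axes.

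The sequences before the start of the 3 lowest genes and of Igfbp2, which went the other way, are shown because REV-ERBα acts at nuclear receptor half-sites and the clock proteins it controls at E-boxes and D-boxes. All are the 250 bases before a RefSeq start on GRCm38.p6, 5′ to 3′ on the gene's strand, with capitals where AGGTCA (the half-site), CACGTG (E-box) or TTATGNAA (D-box) was found on either strand. They are Igfbp4 at chr11:99040994-99041243 on the plus strand, Igfbp5 at chr1:72874866-72875115 on the minus strand, Igf2 at chr7:142666817-142667066 on the minus strand, the farthest upstream of its 4 starts, and Igfbp2 at chr1:72824230-72824479 on the plus strand, the first of its 2 starts.
Igfbp4: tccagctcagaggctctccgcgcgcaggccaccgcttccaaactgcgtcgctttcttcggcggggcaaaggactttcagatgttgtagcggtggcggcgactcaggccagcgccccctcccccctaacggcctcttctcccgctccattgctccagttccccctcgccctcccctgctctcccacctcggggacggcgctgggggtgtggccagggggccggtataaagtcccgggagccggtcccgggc
Igfbp5: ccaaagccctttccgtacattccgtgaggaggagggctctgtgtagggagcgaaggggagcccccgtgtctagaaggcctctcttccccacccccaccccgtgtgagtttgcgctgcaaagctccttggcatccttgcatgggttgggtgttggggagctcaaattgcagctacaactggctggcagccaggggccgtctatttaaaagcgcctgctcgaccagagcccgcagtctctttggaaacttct
Igf2: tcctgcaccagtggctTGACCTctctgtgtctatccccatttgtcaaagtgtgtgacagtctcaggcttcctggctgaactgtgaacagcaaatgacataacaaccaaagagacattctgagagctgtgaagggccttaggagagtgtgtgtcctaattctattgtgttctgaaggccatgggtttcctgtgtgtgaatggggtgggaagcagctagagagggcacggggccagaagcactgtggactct
Igfbp2: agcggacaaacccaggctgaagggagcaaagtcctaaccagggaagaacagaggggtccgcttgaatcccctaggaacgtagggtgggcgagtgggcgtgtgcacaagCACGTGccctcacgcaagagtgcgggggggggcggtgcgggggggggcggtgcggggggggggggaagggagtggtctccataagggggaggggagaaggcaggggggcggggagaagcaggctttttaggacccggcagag

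Igfbp4, the gene that fell, had none of the 3 motifs in this window, and neither had Igfbp5. Igf2 had 1 half-site, on the opposite strand, 234 to 229 bases before the start, and its other 3 windows had no match. Igfbp2 had 1 E-box 142 to 137 bases before its first start. Among the 14 windows of the 10 genes, the half-site was also found before Igf1, Igf1r and Igf2r, and Igf2r had 2 E-boxes. The half-site overlapped the E-box nearer the start in the Igf2r window. Of all 32851 RefSeq windows of the same length, 14.0% hold the half-site, 6.02% the E-box and 3.07% the D-box. A match is a description of the letters only, and a window without one says nothing about binding elsewhere in the gene.

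Igfbp4 lies on chromosome 11, as does Nr1d1, the gene knocked out, and the RefSeq order places 13 annotated genes between them, 9 of them protein coding. Nr1d1 itself read 2897 and 3099 in WT and 1259 and 1229.7 in RKO. Of the 13 genes between, 7 were tested, 0 rose, 0 fell and 7 did not pass, with differences from -0.11 to 0.17 and a median of 0.00. The nearest tested neighbours of Igfbp4 were the gap junction gene Gjd3 (0.17, adjusted p = 0.243 in limma) and the retinoic acid receptor gene Rara (0.07) on the side of Nr1d1, and the chemokine receptor gene Ccr7 (0.07) and the chromatin remodelling gene Smarce1 (-0.16, adjusted p = 0.388) on the other. Igfbp4 was thus the 1 gene that fell among these neighbours and the genes between, apart from Nr1d1. Whether chromosome 11 around Nr1d1 differs between RKO and WT by more than the knockout cannot be told apart from the knockout itself with these arrays.

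**Figure D3:**
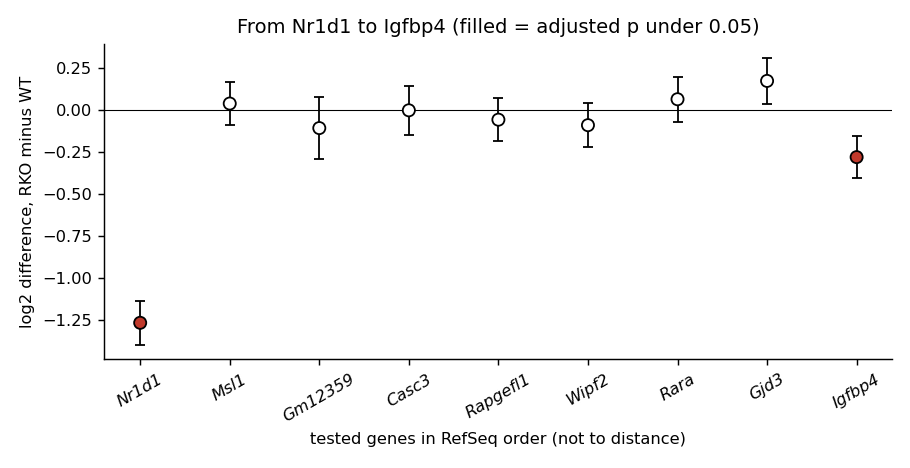
Log2 difference RKO minus WT (vertical, with 95% limma intervals) for the 9 tested genes from Nr1d1 to Igfbp4 in the RefSeq order (horizontal, not to distance). Filled points, Nr1d1 at -1.27 and Igfbp4 at -0.28, have an adjusted p under 0.05.

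Other members also sit beside relatives or beside genes that changed. Igfbp2 and Igfbp5 are next to each other on chromosome 1, and their differences had opposite signs (0.14 and -0.24). Igfbp3 is next to Igfbp1 on chromosome 11, and Igfbp1 lay below the filter with intensities of 129 to 149. Igf2 is followed on chromosome 7 by Ins2 and then by Th, the gene of tyrosine hydroxylase, which read 2168 and 2248 in WT and 3620.0 and 3664 in RKO (log2 difference 0.72), while Igf2 stood at -0.23. Igf1 is followed on chromosome 10 by Pmch, the precursor gene of melanin-concentrating hormone, named here after its values were seen, which read 596 and 545 in WT and 268 and 250.2 in RKO, while Igf1 stood at 0.04.

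The genes whose log2 profile over the 4 arrays, each centred on its own mean, lay nearest to that of Igfbp4 were Nbl1, a BMP antagonist (Euclidean distance 0.0149), Aebp1, a secreted matrix protein (0.0192), and Fxyd5, a regulator of the sodium pump (0.0197). Nbl1 read 439 and 452 in WT and 362 and 377 in RKO, and Aebp1 409 and 429.8 in WT and 335 and 355 in RKO. These 3 were chosen for their likeness to Igfbp4 over 4 arrays, so their own falls (-0.27, -0.28 and -0.29) add nothing to it. Aebp1 is also in the list of leptomeningeal genes described next.

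Markers of the leptomeninges, where Igf2 and Igfbp2 are made, were lower in RKO. Of 20 tested genes of leptomeningeal fibroblasts 14 fell, 0 rose and 6 did not pass, with a median of -0.36 and a summed intensity of 9847 and 9994 in WT and 7469 and 7589 in RKO. The lowest p-values were those of Ogn, a small proteoglycan (-1.11, with RKO intensities of 153 and 137 below the filter), Islr (-0.76) and the amino acid transporter gene Slc6a20a (-0.64). The collagen genes Col1a1 (0.13), Col3a1 (0.08) and Col1a2 (0.07) stood above 0. Igf2 was lower with this list and Igfbp2 was not, and the part of the leptomeninges in the values of Igf2, Igfbp4 and Igfbp5 was not tested. The list was drawn up with earlier results of these arrays known, so its direction is not independent evidence. In bulk tissue, fewer cells of a type and less RNA per cell cannot be told apart.

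Of the other sources, the choroid plexus list had 7 of 8 tested genes above 0 with a median of 0.06 and a summed intensity of 9656 and 9468 in WT and 9953 and 10100.6 in RKO, and Kcnj13 alone passed, lower (-0.37). Of 8 tested genes of pericytes and smooth muscle 2 fell, Anpep (-0.47) and Acta2 (-0.47), 0 rose and 6 did not pass (median -0.14, summed intensity 3623 and 3661 in WT, 3079 and 3286 in RKO). Of 8 endothelial genes 0 passed in limma (median -0.08). An unadjusted p under 0.05 was found for 3 of them, Emcn (-0.22) and Tek (-0.17), which were lower, and Cldn5 (0.19), which was higher. Of 7 tested microglial genes 0 passed in limma and 0 had an unadjusted p under 0.05 (median 0.00). All 8 dopamine neuron markers, which define the tissue, passed the filter, and 5 of 8 rose. Slc6a3, which rose, read 4289 and 4521 in WT and 5489 and 5601 in RKO. Pitx3, which did not pass (0.20, adjusted p = 0.179 in limma), read 247 and 272 in WT and 301 and 295 in RKO. Aldh1a1 alone lay below 0 (-0.10). Some markers of other cells and of a neighbouring region were lower as well. Of 8 astrocyte genes 2 fell, Gfap (-0.51) and Aldh1l1 (-0.31), 0 rose and 6 did not pass (median -0.08). By sign, 5 of the 8 lay below 0 and 3 above, Gja1 (0.22, adjusted p = 0.0848 in limma), Aldoc (0.05) and Slc1a2 (0.05). The summed intensity of the 8 genes was 27479 and 27217 in WT against 27301 and 27610.4 in RKO. All 7 tested oligodendrocyte genes lay below 0, of which Opalin fell (-0.30) and 6 did not pass (median -0.09, summed intensity 31769 and 30770.2 in WT, 29127 and 29271 in RKO). Of 3 genes of the lateral hypothalamus Pmch (-1.14) and Hcrt, the orexin precursor gene (-0.52), fell and Lhx9 (0.06) did not pass, with a summed intensity of 1363 and 1355 in WT against 959 and 898 in RKO. How far the mix of cells or regions bears on the IGF genes was not tested.

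Among genes related to the family by function, likeness or position, 2 changed. A list of 91 genes was drawn up around it, of which 65 were tested, 1 rose, 1 fell and 63 did not pass, with a median of 0.00. So few calls are close to the 1.60% of all tested genes that changed, and they are given as values of these 2 genes, not as a result about the pathway. Ccn3 encodes a matrix protein whose first domain resembles that of the IGF binding proteins. The WT arrays read 319 and 337 and both RKO arrays 217.1. Ccn3 thus fell 1.51-fold, by a log2 difference of -0.60 (SE 0.0571, limma adjusted p = 4.52e-04). Htra1 encodes a secreted serine protease that cuts IGF binding proteins. The WT arrays read 1808.5 and 1772 and the RKO arrays 2113 and 2188. Htra1 thus rose 1.20-fold (0.26, SE 0.0559, limma adjusted p = 0.0438). For Ccn3 and Htra1 alike the groups did not overlap. Ccn3 held its call whichever array was left out, and Htra1 lost it each time, as it did with no filter and with median centring.

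The other binding proteins and related factors did not pass. Of 6 tested, Ccn3 fell and 5 did not pass, Ccn1 (-0.15) and Ccn2 (-0.12), relatives of Ccn3, among them. The other 7, Igfbp1, Igfals, which encodes the subunit that stabilises IGF complexes in blood, and the RNA-binding Igf2bp1 and Igf2bp3 among them, lay below the filter. Of 6 tested proteases and their inhibitors Htra1 rose and 5 did not pass. Stc2, an inhibitor of the protease that cuts IGFBP4, stood at 0.12 (adjusted p = 0.421 in limma) and that protease's own gene, Pappa, at 0.00.

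Downstream of the receptor 0 genes passed in limma. Unadjusted p-values under 0.05 were about as frequent there as in all tested genes, of which 12.8% had one. Of 14 receptor substrates and adaptors 2 had an unadjusted p under 0.05, the neuronal adaptor Shc3 (-0.25, adjusted p = 0.0540 in limma), with 2298 and 2242 in WT and 1929 and 1886 in RKO, and Gab1 (-0.14). Shc3 passed with the stricter filter, with the intensity trend and with the mean over probe sets. Of 22 genes of the PI3K, AKT, mTOR and FOXO branch 2 had such a p, the kinase gene Akt2 (-0.21, adjusted p = 0.130 in limma) and the PI3K subunit gene Pik3r2 (-0.13). Akt2 passed with the stricter filter and with the trend. Of 4 genes of the RAS and ERK branch 0 did, with Nras at -0.06 and Map2k2 at 0.05. Insr, the insulin receptor gene, stood at -0.05, while Ins2 and the insulin receptor relative Insrr lay below the filter.

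Of the 9 tested genes of the growth hormone axis, which drives Igf1 in the liver, 0 passed in limma and 0 had an unadjusted p under 0.05 (median 0.01). Gh itself read 155 and 176 in WT and 206 and 172 in RKO (0.19). Its WT mean of 165 lay under the filter at 167, and its difference was 0.06 without RKO replicate 1 and 0.32 without RKO replicate 2. Socs2, a feedback inhibitor of growth hormone signalling, stood at -0.11. Of the imprinted genes near Igf2 and Igf2r 3 were tested and 0 passed in limma (0 with an unadjusted p under 0.05). Airn, the noncoding RNA that overlaps Igf2r in the opposite direction, read 324.5 and 291 in WT and 279.5 and 289.9 in RKO (-0.11, adjusted p = 0.541), and Kcnq1 stood at 0.09. H19, the imprinted partner of Igf2, was not analysed here.

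**Figure D4:**
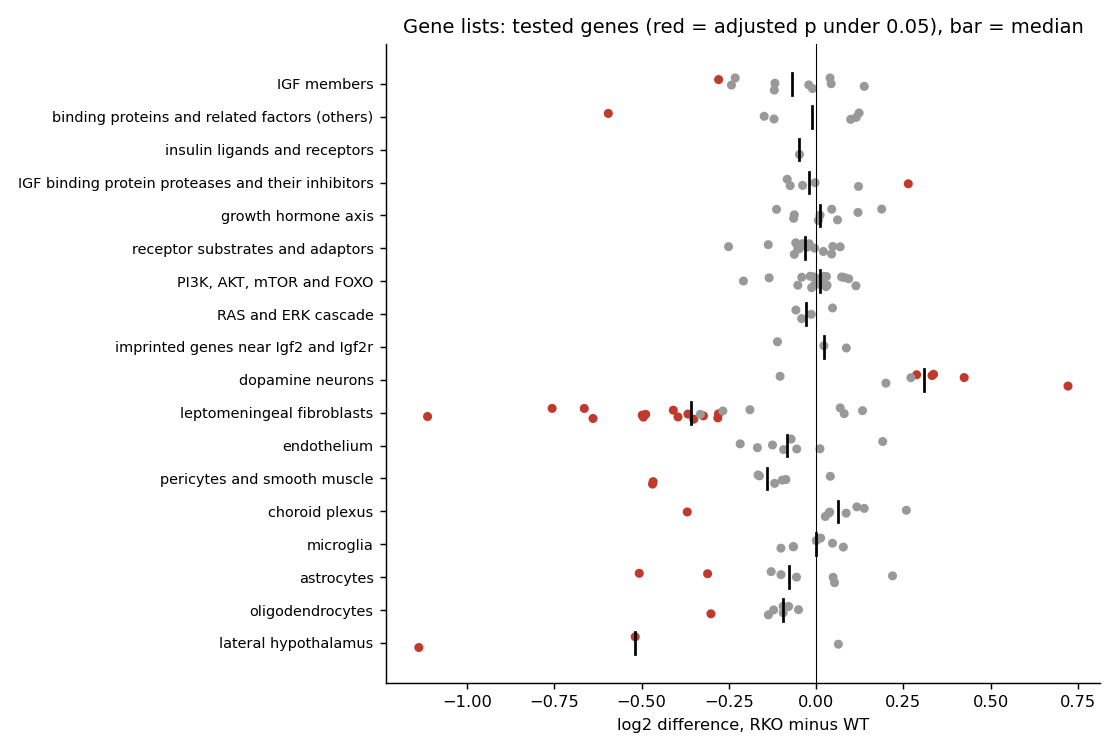
Log2 difference RKO minus WT (horizontal) of every tested gene in the IGF family, in 8 lists of genes related to it by function, likeness or position and in 9 marker lists (rows). Red points have an adjusted p under 0.05 in limma and black bars are list medians; the leptomeningeal list has its median at -0.36, and 1 red point stands in the IGF row.

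The position of the members under the other settings showed the same 3 genes at the low end. This was in part fixed in advance. Another or no filter, the trend, the mean over probe sets and the block could not move a member's difference. Over the 11 other settings the log2 difference ran from -0.31 to -0.25 in Igfbp4, from -0.26 to -0.20 in Igf2 and from -0.30 to -0.18 in Igfbp5, and from 0.07 to 0.21 in Igfbp2. Igfbp4 passed in 4 of these 11 settings, Igf2 in 2, Igfbp5 in 2 and the other 7 genes in 0 of those in which they were tested.

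**Figure D5:**
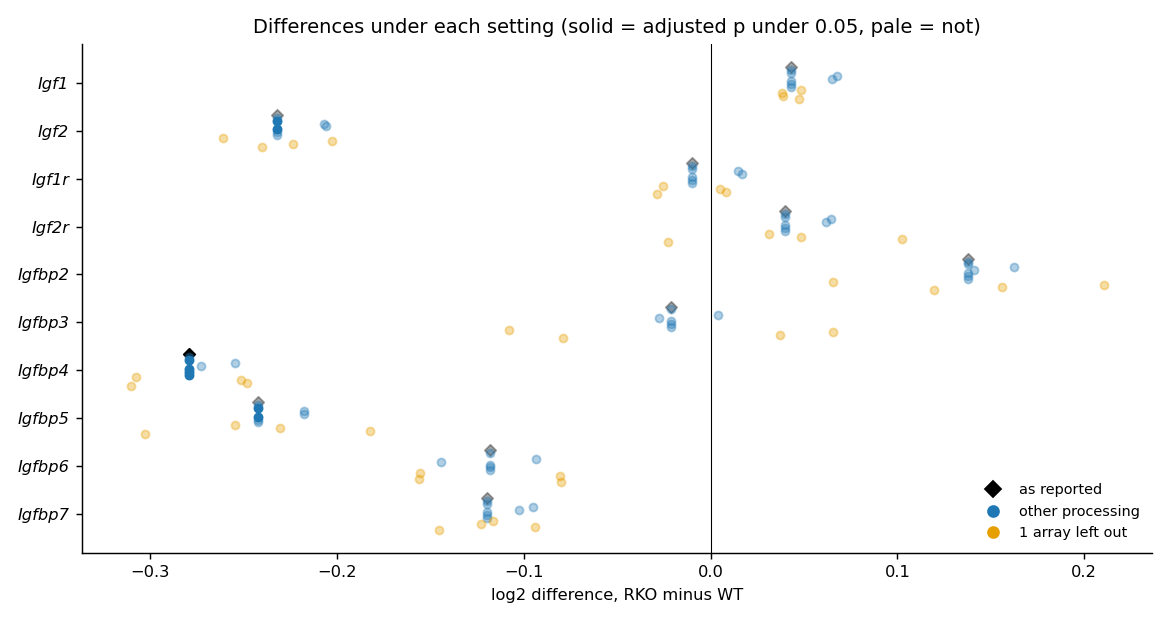
Log2 difference RKO minus WT (horizontal) of each IGF gene as reported (black diamonds), under other processing (blue) and with 1 array left out (orange); solid symbols have an adjusted p under 0.05 in limma and pale ones do not. Igf2, Igfbp4 and Igfbp5 stay below -0.18 throughout, and Igf1r, Igf2r and Igfbp3 lie on both sides of 0. Of the blue points, only those of median centring and quantile normalization could move away from the diamond.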

How the data were processed

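Ventral midbrain RNA of 2 WT and 2 RKO samples was hybridised to an Affymetrix mouse gene array, with biotin-labelled cRNA made from 1 µg of total RNA, per the labels' protocols. The authors deposited 1 normalized intensity per probe set and array. The submitters' processing notes name GCOS and RMA, with no version or setting. The deposited values are linear, judged from their range, and were turned into log2 here with no pseudocount. RMA normally makes the arrays' distributions alike, which takes out any shift that most genes share. Here some difference remained, as RKO replicate 1 had a lower median over tested genes than the other arrays, and 56.8% of tested genes lay below 0. Median centring took the number of changed genes from 218 to 106, and quantile normalization to 166.

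Of the probe sets, 21789 had 1 gene symbol in the platform annotation, 1621 had several and 12146 were unnamed here. Only the first kind was used, and levels were not compared between genes. Per gene the probe set with the highest mean was kept, and genes whose mean lay under the array-wide 40th percentile (log2 7.38) were left out. The groups were compared in limma 3.58.1 (lmFit, eBayes; R 4.3.3) over all 13587 tested genes, without covariates, and a change was called at a Benjamini-Hochberg adjusted p under 0.05, two-sided. In this fit each gene's own spread (2 residual degrees of freedom) is combined with a spread drawn from all tested genes (8.73 prior degrees of freedom). The SE, intervals and p-values are therefore not those of a gene's own arrays alone. An exact permutation test of 2 against 2 arrays cannot go below p = 0.333, so none was run. The fit was tested on simulated data, in which the changes put in were larger than any difference among the IGF genes. Differences as small as theirs were not covered. Pairs of arrays correlated at 0.99343 to 0.995641 over all probe sets, lowest between the WT arrays, and the median over tested genes was 539.8 in RKO replicate 1 against 558.6 or 558.7 in the others.

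The members and lists were chosen with earlier results of these data known. Named besides the members were the list genes that passed, or the 2 of lowest p in a list with fewer than 2, the nearest 2 tested neighbours on each side and the 3 nearest profiles of the changed member, the 3 leptomeningeal genes of lowest p, and Nr1d1, Th and Slc6a3. Other list genes named were picked after their values were seen. Gene order and sequences come from RefSeq (GRCm38.p6). No genome build of the array annotation was at hand. All 10 members matched. Alternatives were another or no filter, median centring, quantile normalization, an intensity trend, the mean over probe sets, the replicate number as a block, and each array left out.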

Additional observations from a re-analysis of the deposited data

How the results depend on the processing

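The number of changed genes, 218 as reported, was 31 with no filter, 106 with median centring, 499 with an intensity trend and 77 to 287 with 1 array left out, 77 without RKO replicate 1, 109 without RKO replicate 2, 154 without WT replicate 1 and 287 without WT replicate 2. Of the 10 IGF genes, 1 changed as reported, 0 with no filter, median centring, quantile normalization or any 1 array left out, and 3 with the 60th percentile filter or the trend. Of the pathway genes, 2 changed as reported, 1 with no filter, median centring or any 1 array left out, and 4 with the trend. The labels do not say that a replicate number pairs samples. With it as a block 259 genes, 1 IGF gene and 2 pathway genes changed, and deviations of same-numbered arrays correlated at -0.114. With crossed numbers as a block, chosen after seeing the data, 696 genes and 3 IGF genes changed. Signs turned for genes close to 0. With 1 array left out the difference ran from -0.0285 to 0.0080 in Igf1r, -0.0230 to 0.103 in Igf2r, -0.108 to 0.0657 in Igfbp3, -0.141 to 0.0253 in Nras, -0.0011 to 0.0951 in Map2k2, -0.0042 to 0.178 in Kcnq1 and -0.0739 to 0.216 in Ccr7. Igf1r stood at 0.0145 with median centring, 0.0168 with quantile normalization and Igfbp3 at 0.0037 with median centring. Over the other named genes 260 values kept direction and call, 30 lost the call, 5 gained it and 4 turned sign. Their causes were not tested. Intensities near the filter carry the least signal over background, and 2 arrays a group leave intervals of 0.12 to 0.16 on either side of an IGF gene's difference.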
